A study of Mus musculus with 15 samples.

Results

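Metastases that B16-F10.1 mouse melanoma cells formed in the lung were compared between hosts fed a methionine-supplemented diet, labelled 300%, and hosts fed a methionine-adequate diet. Members were chosen by the diet label alone: 6 supplemented and 3 adequate libraries, which makes 9 of the 15 libraries in the series. B16-F10.1 is a pigmented line that settles in the lung when it is injected into a vein. All hosts were male C57BL/6J mice, 8 weeks old, that received 100000 cells through the tail vein, carried them for 21 days and were then kept on a test diet for 2 weeks. The adequate diet carries no percentage in its label. The other 6 libraries come from a restricted diet (25%, n = 3) and a deficient diet (0%, n = 3), and they enter here to estimate the spread and for levels set side by side. The study's design text describes the adequate, deficient and restricted diets, so the supplemented diet is known from the sample labels only. The labels do not say whether each library came from its own mouse, and the p-values below then reflect only differences among these samples, which may be technical.

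Methionine is an essential amino acid. Cells turn it into S-adenosylmethionine, the donor for nearly all methylation of DNA, histones, RNA and small molecules, and the leftover homocysteine is either returned to methionine or drained into cysteine and glutathione. S-adenosylmethionine also feeds polyamine synthesis, whose by-product is salvaged back to methionine, and a lack of amino acids is known to switch on a stress program run by the transcription factor ATF4. Many tumour lines depend on a steady supply of methionine.

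Adequate libraries held 18836108 to 23006314 counts and supplemented libraries 13107679 to 26362706, and the totals did not separate (two-sided exact permutation test over the libraries, p = 0.345, adjusted p = 0.432 over 5 library values). A pair of libraries stood apart. Adequate replicate 1 had 45.8% of its counts in small structural RNAs and a pair of short unnamed genes with identical counts, against 22.5% and 22.03% in the other adequate libraries and 14.2% to 24.8% in the supplemented ones. Supplemented replicate 5 held skeletal muscle RNA and almost no lung RNA: all 20 muscle markers were highest there among the 15 libraries, Acta1 (skeletal actin) reached 845.5 CPM (counts scaled to a common library size), and Sftpc (surfactant protein C) stood at 0.186 CPM. Across genes, Spearman correlations between supplemented libraries were 0.966 to 0.980 without replicate 5 and 0.926 to 0.946 with it. Between adequate libraries they were 0.973 for replicates 2 and 3 and 0.946 to 0.949 for pairs with replicate 1. Melanocyte markers were present in every library. Their mean level was 7.16 to 7.63 log2 CPM in the adequate and 7.43 to 7.63 in the supplemented libraries. Tyr, the enzyme that starts melanin synthesis, stood at 760, 521 and 815 CPM in the adequate libraries and at 503 to 619 CPM (median 593) in the supplemented libraries (exact permutation p = 0.0952, adjusted p = 0.218).

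No gene passed the test of supplemented against adequate libraries. With edgeR's quasi-likelihood test and Benjamini-Hochberg adjustment, 0 of 16001 genes had an adjusted p under 0.05 (0.0%), and the smallest adjusted p was 0.125. At an unadjusted p under 0.05 there were 1563 genes (9.77%), 776 higher (4.85%) and 787 lower (4.92%) in the supplemented libraries. The 2 groups of libraries did not overlap for 701 genes (4.38%), 343 of them higher (2.14%) and 358 lower (2.24%). DESeq2 called 105 of 15615 genes (0.672%), 72 higher (0.461%) and 33 lower (0.211%), and limma-voom called 3 of 16001 (0.0187%). The call of Fgb, which encodes the fibrinogen beta chain, was the one shared by DESeq2 and limma-voom. That gene had almost no counts outside the adequate libraries, so it passed the count filter only through the group where it was high. Genes are therefore given below by their values. A log2 fold change is of supplemented over adequate, ± is its standard error, and adjusted p-values are from edgeR unless DESeq2 is named. Over all genes tested the median log2 fold change was 0.03.

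The 10 genes with the smallest p among those with higher values in the supplemented libraries were of varied function. Ddr2, a receptor tyrosine kinase for fibrillar collagen, stood at 65.1, 48.1 and 60.7 CPM in the adequate libraries and at 86.2 to 123 CPM (median 110) in the supplemented libraries. All 6 supplemented libraries lay above all 3 adequate ones. The log2 fold change was 0.91 ± 0.15 (adjusted p = 0.146, DESeq2 adjusted p = 2.11e-06), and it stayed between 0.79 and 1.06 under 19 other settings of the analysis. Unc13b, a priming factor for vesicle release, stood at 17.7, 8.58 and 16.3 CPM and at 24.9 to 38.3 CPM (median 32.1), a log2 fold change of 1.17 ± 0.22. Mfsd12, a melanosome and lysosome transporter of the pigment cell list, stood at 23.4, 23.02 and 14.2 CPM in the adequate libraries and at 31.7 to 41.5 CPM (median 35.2) in the supplemented libraries. Clcn7, a chloride transporter of lysosomes, stood at 43.6, 49.5 and 62.5 CPM against 69.8 to 102 CPM (median 87.8). Neither Mfsd12 nor Clcn7 had an overlap between the groups, and their log2 fold changes were 0.84 ± 0.17 and 0.76 ± 0.16 (adjusted p = 0.216 and 0.246).

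Dcp2, the enzyme that removes the cap of messenger RNA, was tight within the adequate group, at 26.8, 26.6 and 27.2 CPM, and stood at 37.6 to 52.5 CPM (median 48.4) in the supplemented group. Ern1, which encodes the stress sensor IRE1 alpha of the endoplasmic reticulum, stood at 18.1, 34.7 and 24.4 CPM and at 36.4 to 61.6 CPM (median 51.8), a log2 fold change of 0.96 ± 0.21. Both genes had groups that did not overlap. The same held for the splicing factor gene Prpf40b (0.88 ± 0.17), the oxysterol-binding protein gene Osbpl6 (0.95 ± 0.19) and the nuclear pore gene Nup155 (0.65 ± 0.14). Col12a1, which encodes a collagen that coats collagen fibrils, had the largest log2 fold change of the 10, at 1.55 ± 0.31, from 13.6, 16.5 and 19.5 CPM to 31.0 to 83.2 CPM (median 46.1). Its highest value was in supplemented replicate 5.

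**Figure D1:**
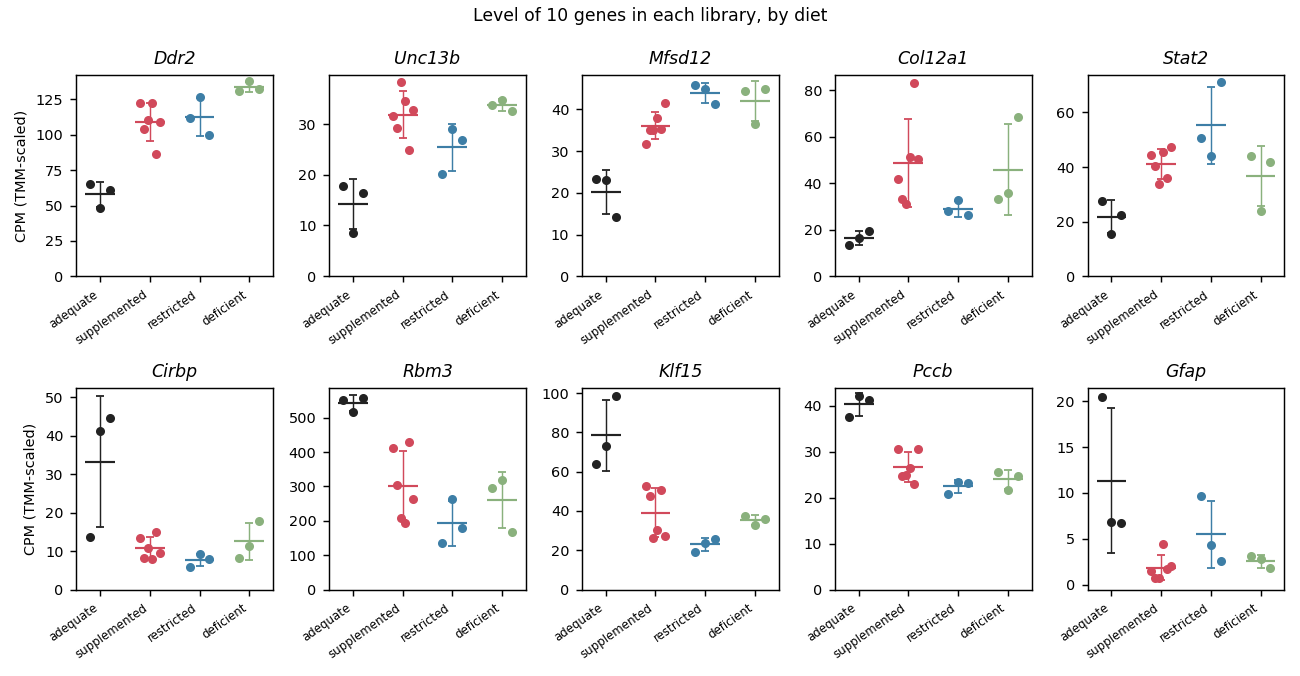
CPM of 10 genes in each library (points), with the group mean (horizontal line) and SD (bar), for the adequate (n = 3), supplemented (n = 6), restricted (n = 3) and deficient (n = 3) diets. In the upper row the 3 adequate libraries sit below all 6 supplemented libraries for each gene, and in the lower row they sit above them, except for Cirbp, where adequate replicate 1 (13.7 CPM) lies within the supplemented range of 7.83 to 15 CPM.

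Genes with the smallest p among those with lower values in the supplemented libraries were also of varied function. Gfap, an intermediate filament of glia, stood at 20.5, 6.87 and 6.73 CPM in the adequate libraries against 0.667 to 4.43 CPM (median 1.59), with no overlap. Of the 16 markers of nerve and Schwann cells 11 were tested, 5 above 0 and 6 below, with a median of -0.13. That median was 0.14 without adequate replicate 1 and supplemented replicate 5 together. Among the 11, 2, Gfap included, had an unadjusted p under 0.05, both lower (18.2% against 4.92% of all genes). Col2a1, the collagen of cartilage, stood at 10.8 and 12.5 CPM in adequate replicates 1 and 2 but at 0.773 CPM in replicate 3, inside the supplemented range of 0.274 to 1.3 CPM.

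Pccb, a subunit of the propionyl-CoA carboxylase that disposes of the carbon skeleton of methionine, stood at 37.5, 42.2 and 41.2 CPM in the adequate libraries and at 23 to 30.6 CPM (median 25.6) in the supplemented libraries, a log2 fold change of -0.60 ± 0.13 (adjusted p = 0.248, DESeq2 adjusted p = 0.0139). Sccpdh stood at 34.5, 36.7 and 42.3 CPM against 21.2 to 25.6 CPM (median 24.04). Both had groups that did not overlap. The small RNA genes Gm26316, Gm22973 and Snord22 had log2 fold changes of -2.68 ± 0.57, -1.51 ± 0.34 and -1.91 ± 0.45, with no overlap between groups. They were highest in adequate replicate 1, the library with 45.8% of its counts in small structural RNAs and the unnamed pair. That summed share did not separate the groups (30.1% ± 13.6, SD, n = 3, against 20.8% ± 3.77, n = 6, exact permutation p = 0.131). Small structural RNAs without the pair held 9.358%, 5.525% and 5.532% of the counts in the adequate libraries. In the supplemented libraries they held 3.578% to 5.294%, with no overlap, a share that was not tested.

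Genes of the methionine cycle divided evenly. Of 14 tested members, 7 had a log2 fold change above 0 and 7 below, with a median of 0.00 (-0.12 without adequate replicate 2 to 0.13 without adequate replicate 1). Mat2b, the regulatory subunit of the enzyme that makes S-adenosylmethionine, stood at 34.6, 23.8 and 23.6 CPM in the adequate libraries and at 14.5 to 22.8 CPM (median 17.9) in the supplemented libraries. The groups did not overlap, and the log2 fold change was -0.59 ± 0.17 (adjusted p = 0.322). It was -0.40 without adequate replicate 1, which had the highest value. Mat2a, the catalytic subunit, stood at 136, 90.0 and 93.6 CPM against 70.2 to 120 CPM (median 101), inside the spread of the libraries (-0.11 ± 0.24). Ahcy, which splits S-adenosylhomocysteine, stood at 119, 59.5 and 86.6 CPM against 67.0 to 132 CPM (median 91.1), a log2 fold change of 0.07 ± 0.23. Its relative Ahcyl2 had 0.50 ± 0.19, with 1 supplemented library inside the adequate range. Bhmt, which remethylates homocysteine in liver, stood at 1.07, 1.304 and 0 CPM in the adequate libraries and at 0 in all 6 supplemented libraries.

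In salvage and polyamine metabolism 16 of 18 tested members lay below 0, against 47.1% of all genes tested, with a median of -0.19. Of these, 3 had an unadjusted p under 0.05, which is 16.7% against the background of 4.92%. They were Azin2, an antizyme inhibitor (-0.70 ± 0.27), Oaz1, the antizyme that marks ornithine decarboxylase for destruction (-0.49 ± 0.21), and Paox, which breaks down acetylated polyamines (-0.74 ± 0.34). Azin2 stood at 8.57, 9.58 and 8.23 CPM in the adequate libraries and at 4.50 to 7.29 CPM (median 5.16) in the supplemented libraries, with no overlap. Odc1, the first enzyme of polyamine synthesis, had -0.36 ± 0.26, and Mtap, the first enzyme of salvage, had -0.36 ± 0.25, both with overlapping groups. Without adequate replicate 1 the list's median was -0.09 and 13 of 18 members lay below 0. The median was -0.30 without adequate replicate 2 and -0.32 without supplemented replicate 5. Transsulfuration and glutathione genes divided 10 to 10, with a median of 0.00. Cbs, the entry enzyme of transsulfuration, stood low in every library of the comparison, at 0.100 to 0.318 CPM in the adequate and 0.0620 to 0.529 CPM in the supplemented libraries.

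Of 26 amino acid transporters 20 lay above 0, with a median of 0.21 that was 0.01 without adequate replicate 1. Slc6a17, a neutral amino acid transporter of vesicles, stood at 77.3, 121 and 122 CPM against 122 to 308 CPM (median 167), a log2 fold change of 0.85 ± 0.31 in which the lowest supplemented library was only just above the highest adequate one. Slc7a7, a subunit of a cationic amino acid exchanger, had 0.85 ± 0.29, and the taurine carrier Slc6a6 had -0.63 ± 0.28, with adequate replicate 1 at 212 CPM and replicates 2 and 3 at 740 and 617 CPM. Of 29 tested ATF4 response genes, 10 lay above 0 and 19 below, with a median of -0.10 that ran from -0.30 without supplemented replicate 1 to -0.07 without supplemented replicate 4. Asns, asparagine synthetase and a classic target, stood at 164, 110 and 109 CPM in the adequate libraries and spread from 71.3 to 188 CPM (median 102) in the supplemented libraries. Atf4 itself had -0.21 ± 0.24, Trib3, a pseudokinase induced by it, -0.41 ± 0.40, and Atf5 0.56 ± 0.34, all inside the spread of the libraries.

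Enzymes that write, erase or read methyl groups on DNA and histones lay above 0 in 37 of 51 cases, with a median of 0.20 (0.08 without adequate replicate 1). At an unadjusted p under 0.05 there were 7 higher (13.7% against 4.85% of all genes) and 1 lower. Tet2, which oxidises methylcytosine, stood at 16.1, 32.0 and 31.9 CPM and at 33.7 to 47.5 CPM (median 41.7), with no overlap. Its log2 fold change of 0.63 ± 0.20 was 0.36 without adequate replicate 1, the lowest library. Nsd2, a histone H3 lysine methyltransferase, had 0.38 ± 0.14, and the arginine methyltransferase gene Prmt6 had -0.46 ± 0.17, at 17.5, 23.4 and 19.1 CPM against 12.2 to 17.2 CPM (median 14.7).

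**Figure D2:**
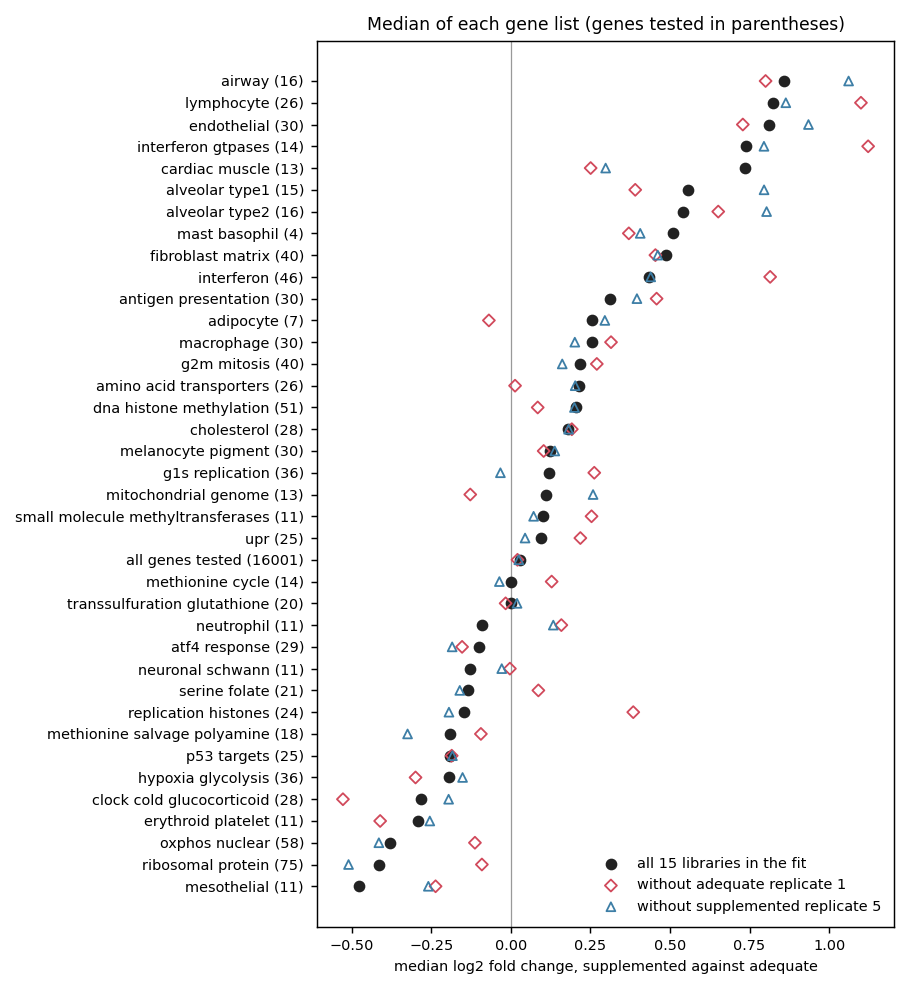
Median log2 fold change, supplemented against adequate, of each gene list (rows, genes tested in parentheses) and of all genes tested, with all libraries (filled circles), without adequate replicate 1 (diamonds) and without supplemented replicate 5 (triangles). Interferon, endothelial and matrix lists lie right of 0 under all 3, the ribosomal protein median moves from -0.41 to -0.09 without adequate replicate 1, and the plasma protein and skeletal muscle lists, whose medians lie far outside this range, are not drawn.

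Interferon-stimulated genes had higher values in the supplemented libraries for most members. Of 46 tested members, 42 lay above 0, against 52.9% of all genes, and the median was 0.43. At an unadjusted p under 0.05 there were 16 higher (34.8% against 4.85%) and 0 lower, and for 8 the groups did not overlap (17.4% against 2.14%). DESeq2 called 3 of the 46 (its share over all genes was 0.461% higher) and edgeR 0. Stat2, a transcription factor that carries the signal of type I interferon, stood at 27.6, 15.5 and 22.3 CPM in the adequate libraries and at 33.6 to 47.4 CPM (median 42.5) in the supplemented libraries. The groups did not overlap (0.92 ± 0.23, adjusted p = 0.288, DESeq2 adjusted p = 0.0335). Parp14, an ADP-ribosyltransferase induced by interferon, stood at 38.8, 30.6 and 28.01 CPM against 47.6 to 79.4 CPM (median 57.1), also with no overlap (0.93 ± 0.24).

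The adequate libraries were not alike in this list. The mean level was 5.38 log2 CPM in adequate replicate 1, inside the supplemented range of 5.13 to 5.75, and 4.41 and 4.64 in replicates 2 and 3. The median log2 fold change was 0.81 without adequate replicate 1, 0.24 without replicate 2 and 0.32 without replicate 3. The interferon-inducible GTPases, which attack the vacuoles of intracellular microbes, lay above 0 in 14 of 14 cases, with a median of 0.74 (0.55 to 1.17 over 17 other settings). Gbp7 stood at 34.5, 19.1 and 22.1 CPM against 35.4 to 55.8 CPM (median 42.5), with no overlap (0.83 ± 0.24), and Irgm2 at 43.4, 27.6 and 25.7 CPM against 41.3 to 63.1 CPM (median 54.0), with 1 supplemented library below adequate replicate 1. Antigen presentation genes lay above 0 in 24 of 30 cases, with a median of 0.31. Nlrc5, the activator of class I genes, had 1.10 ± 0.28, from 17.6, 24.1 and 18.2 CPM to 27.9 to 61.7 CPM (median 41.6). Tap2, a subunit of the peptide pump that loads class I molecules, had 0.65 ± 0.16, from 23.6, 23.1 and 25.8 CPM to 31.1 to 44.5 CPM (median 36.7). Neither had an overlap. Summed macrophage markers were alike, at 1111 to 1732 CPM in the adequate and 1127 to 1820 CPM in the supplemented libraries. The macrophage list had 20 of 30 members above 0 and a median of 0.25 (0.04 without adequate replicate 3). Summed lymphocyte markers were 14.96 to 26.0 CPM against 12.3 to 51.6 CPM, with a list median of 0.82. Their part in the interferon values was not tested. In bulk tissue such as this, fewer cells of a type and less RNA per cell cannot be told apart.

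The promoters of 3 interferon-responsive genes named above are shown because they hold a match to the core of the interferon-stimulated response element. The letters searched were GAAA, any 2 bases and GAAA again, on both strands, in the 300 bases from 250 before to 50 after each start site (RefSeq, GRCm38.p6). The first is Stat2 at chr10:128270248-128270497, the second Irgm2 at chr11:58214727-58214976 and the third Gbp7 at chr3:142530086-142530335, all on the plus strand. Each line gives the 250 bases before the start site, 5′ to 3′, with the match in capitals.
Stat2: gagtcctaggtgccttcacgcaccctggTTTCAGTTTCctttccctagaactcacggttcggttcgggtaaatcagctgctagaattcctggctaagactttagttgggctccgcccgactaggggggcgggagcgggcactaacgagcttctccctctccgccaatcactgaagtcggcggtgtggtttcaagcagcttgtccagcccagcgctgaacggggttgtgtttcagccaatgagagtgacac
Irgm2: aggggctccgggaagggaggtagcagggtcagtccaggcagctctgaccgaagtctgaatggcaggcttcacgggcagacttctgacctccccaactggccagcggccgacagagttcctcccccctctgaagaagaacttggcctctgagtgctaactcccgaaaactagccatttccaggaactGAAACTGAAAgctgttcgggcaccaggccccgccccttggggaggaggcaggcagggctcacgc
Gbp7: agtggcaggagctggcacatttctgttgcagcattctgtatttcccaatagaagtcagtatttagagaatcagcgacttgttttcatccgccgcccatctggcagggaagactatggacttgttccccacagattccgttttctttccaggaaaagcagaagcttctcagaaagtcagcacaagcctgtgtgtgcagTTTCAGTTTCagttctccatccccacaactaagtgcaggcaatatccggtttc
The match begins 222 bases before the start site in Stat2, 64 in Irgm2 and 53 in Gbp7. It reads GAAACTGAAA in Irgm2 and, on the other strand, TTTCAGTTTC in the other two. Among 27025 genes with a promoter in the table, 3.99% held the letters. They were in 8 of 9 GTPase genes with a promoter (88.9%), 14 of 32 interferon list genes (43.8%), 5 of 25 antigen presentation genes (20%), 7 of 55 ribosomal protein genes (12.7%), 1 of 23 matrix genes (4.35%) and 0 of 14 endothelial genes. The median log2 fold change of genes with the letters was not always the higher one. It was 0.40 with and 0.29 without the letters in the interferon list, -0.01 and 0.41 in the antigen presentation list, and -0.49 and -0.42 in the ribosomal protein list. Among the GTPase genes it was 0.69 with the letters, and the 1 gene without them had 0.22.

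Genes of the extracellular matrix and of vessels also had higher values in most supplemented libraries. In the fibroblast and matrix list 34 of 40 members lay above 0, the median was 0.49, and 11 had an unadjusted p under 0.05 (27.5% against 4.85%), all higher. For 4 the groups did not overlap (10% against 2.14%), and DESeq2 called 5 of the 40 (0.461% of all genes). Tnc, the glycoprotein tenascin C, stood at 9.07, 8.07 and 7.37 CPM in the adequate libraries and at 14.4 to 76.9 CPM (median 29.99) in the supplemented libraries, a log2 fold change of 2.16 ± 0.54 (adjusted p = 0.288). Col6a3, a chain of the beaded collagen VI, stood at 20.9, 39.9 and 36.6 CPM against 51.9 to 115 CPM (median 66.5), or 1.25 ± 0.31. The list's mean level was 4.37 to 4.74 log2 CPM in the adequate libraries, and 5 of 6 supplemented libraries lay above it at 4.97 to 5.21, while supplemented replicate 1 stood at 4.63. Leaving out adequate replicate 2 gave a median of 0.77, against 0.45 when adequate replicate 1 was left out and 0.46 for supplemented replicate 5.

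Endothelial markers lay above 0 in 29 of 30 cases, with a median of 0.81, and 5 had an unadjusted p under 0.05 (16.7% against 4.85%). Robo4, a guidance receptor that steadies vessels, stood at 4.85, 9.83 and 6.91 CPM against 9.42 to 33.3 CPM (median 19.5), or 1.46 ± 0.40. Aplnr, the apelin receptor of growing vessels, stood at 5.99, 3.01 and 7.05 CPM against 8.29 to 18.2 CPM (median 15.6), with no overlap. Nos3, the nitric oxide synthase of endothelium, stood at 4.09, 6.17 and 3.91 CPM against 6.73 to 19.4 CPM (median 7.62), also with no overlap. Outside the list, Bcl6b and Heyl were among the 6 genes with the largest log2 fold change and no overlap between the groups. Bcl6b, a transcriptional repressor, had 2.40 ± 0.70. Heyl, a Notch target of vessel walls, had 2.12 ± 0.54 and stood at 1.26, 5.12 and 2.50 CPM against 7.80 to 17.4 CPM (median 13.2).

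Markers of normal lung varied along with the endothelial list. The endothelial mean level was 4.77 to 4.94 log2 CPM in supplemented replicates 3, 4 and 6, where alveolar type 2 markers stood at 5.30 to 5.91, and 3.005 in supplemented replicate 5, where they stood at -0.67. In the adequate libraries the endothelial level was 3.43 to 3.93 and the alveolar type 2 level 3.20 to 5.08. The alveolar type 2, alveolar type 1 and airway lists had medians of 0.54, 0.56 and 0.86, and 0 of 16, 0 of 15 and 0 of 16 tested members had an unadjusted p under 0.05. These medians moved with single libraries. Type 2 ran from 0.23 without adequate replicate 3 to 1.13 without adequate replicate 2. Type 1 ran from 0.13 to 1.15 without the same libraries, and was 0.22 without supplemented replicate 6. The airway median was 0.21 without supplemented replicate 6. With the mean level of the alveolar lists as a covariate the endothelial median was 0.72, the matrix median 0.51 and the interferon median 0.42. That covariate is a straight-line term in log2 CPM, which need not remove RNA that lung tissue adds. The part of lung tissue in these values was not tested.

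**Figure D3:**
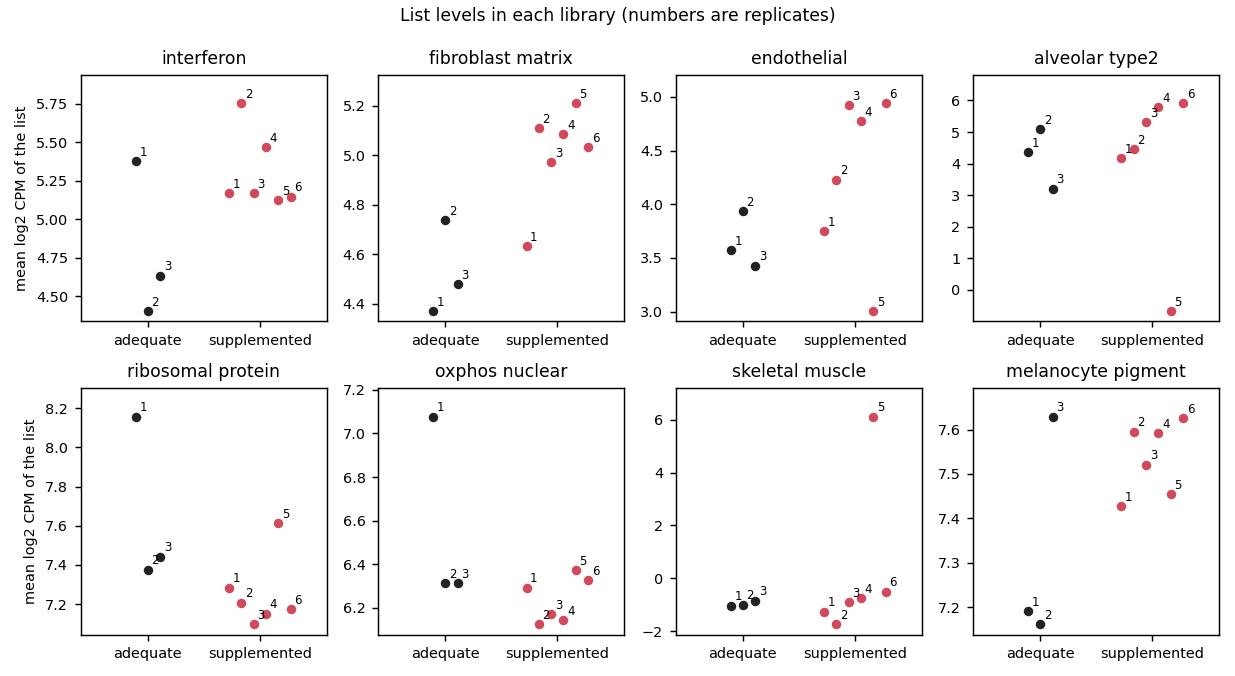
Mean log2 CPM of the members of 8 gene lists in each adequate (n = 3) and supplemented (n = 6) library, with the replicate number beside each point and a separate vertical scale for each list. Adequate replicate 1 stands apart in ribosomal protein and respiratory chain genes (8.16 and 7.08), and supplemented replicate 5 in alveolar type 2 (-0.67) and skeletal muscle markers (6.12).

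Ribosomal protein and respiratory chain genes had lower values in the supplemented libraries, a difference that was smaller without adequate replicate 1. Of 75 tested ribosomal protein genes 74 lay below 0, with a median of -0.41, and 23 had an unadjusted p under 0.05 (30.7% against 4.92%). Of 58 nuclear genes of the respiratory chain 57 lay below 0, with a median of -0.38, and 23 passed the same mark (39.7%). Without adequate replicate 1 the medians were -0.09 and -0.11. Rps25, of the small ribosomal subunit, stood at 260, 139 and 130 CPM in the adequate libraries and at 87.2 to 118 CPM (median 105) in the supplemented libraries. Its groups did not overlap, which held for 2 of the 75 ribosomal protein genes (2.67% against 2.24% of all genes). Its log2 fold change of -0.78 ± 0.21 was -0.41 without adequate replicate 1. Atp5h, a subunit of ATP synthase, stood at 138, 69.9 and 79.6 CPM against 52.7 to 67.9 CPM (median 62.5), and its -0.66 ± 0.19 was -0.32 without that library. The groups also did not overlap for Ndufa4 (-0.69 ± 0.21), Ndufa8 (-0.47 ± 0.14) and Cox6b1 (-0.47 ± 0.17), all subunits of the chain. Among the 58 respiratory chain genes 7 had no overlap (12.1%). Rps28, another protein of the small ribosomal subunit, had -0.45 ± 0.14 and overlapped. The 13 genes of the mitochondrial genome had a median of 0.11 and 0 members with an unadjusted p under 0.05. That median was -0.13 without adequate replicate 1 and 0.32 without adequate replicate 2.

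Transcript length moved with these values. The median length was 683 bases for the ribosomal protein genes and 709 for the respiratory chain genes, against 2401 for all protein-coding genes tested, 2433 for the interferon, 3002 for the endothelial and 3683 for the matrix list. Among protein-coding genes the median log2 fold change was -0.38 for the 106 genes of up to 500 bases, 0.08 for the 5952 genes of 2000 to 4000 bases and 0.36 for the 245 genes over 8000 bases. Without adequate replicate 1 these medians were -0.04, 0.03 and 0.13. The part of length in the list values was not tested.

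**Figure D4:**
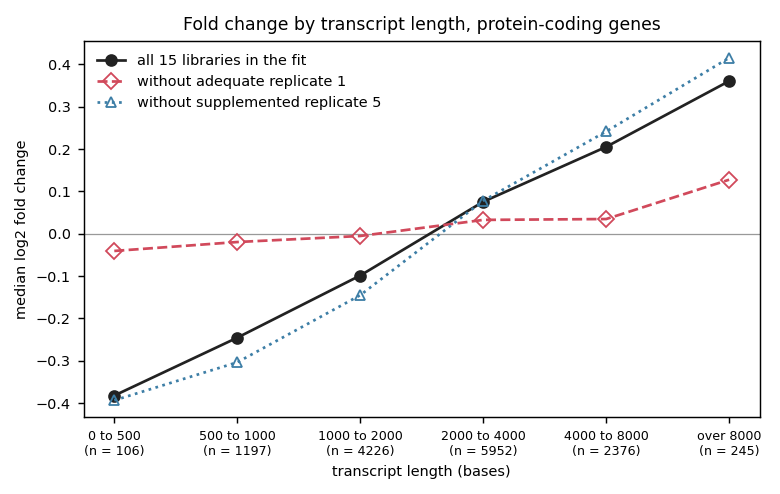
Median log2 fold change, supplemented against adequate, of protein-coding genes in 6 bins of transcript length (bases, number of genes under each bin), with all libraries (circles), without adequate replicate 1 (diamonds) and without supplemented replicate 5 (triangles). The medians run from -0.38 in the shortest bin to 0.36 in the longest with all libraries, and from -0.04 to 0.13 without adequate replicate 1.

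Among genes of the clock, the cold response and glucocorticoid action 22 of 28 lay below 0, with a median of -0.28, and for 5 the groups did not overlap (17.9% against 2.24%). The median was -0.53 without adequate replicate 1 and 0.01 without adequate replicate 2. Cirbp, an RNA-binding protein made in the cold, stood at 13.7, 41.3 and 44.7 CPM in the adequate libraries and at 7.83 to 15 CPM (median 10.2) in the supplemented libraries. Its log2 fold change was -1.62 ± 0.33 (adjusted p = 0.218, DESeq2 adjusted p = 0.00794). Rbm3, a relative with the same kind of induction, was tight in the adequate libraries at 553, 517 and 558 CPM and spread from 194 to 431 CPM (median 283) in the supplemented libraries, with no overlap (-0.84 ± 0.28). Klf15, which glucocorticoids induce and which regulates amino acid breakdown, stood at 63.9, 73.2 and 98.8 CPM against 26.4 to 52.8 CPM (median 39.0), with no overlap (-1.01 ± 0.23, adjusted p = 0.252, DESeq2 adjusted p = 0.0210). Mt1, a metallothionein, stood at 374, 385 and 395 CPM against 244 to 316 CPM (median 271), also with no overlap (-0.48 ± 0.20).

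Of 36 hypoxia and glycolysis genes 28 lay below 0, with a median of -0.19 (-0.30 without adequate replicate 1, -0.12 without supplemented replicate 6). An unadjusted p under 0.05 was found for 2, both lower (5.56% against 4.92% of all genes). For 4 the groups did not overlap (11.1% against 2.24%). Car12, a carbonic anhydrase induced by low oxygen, stood at 14.2, 11.2 and 9.37 CPM against 1.26 to 6.96 CPM (median 4.06), and Bnip3l, a mitophagy receptor, at 223, 192 and 197 CPM against 111 to 189 CPM (median 130). Neither had an overlap, and their log2 fold changes were -1.55 ± 0.52 and -0.56 ± 0.20. Of 25 p53 targets 16 lay below 0, with a median of -0.19 (-0.30 without supplemented replicate 2, -0.07 without supplemented replicate 6). Mdm2, the ligase that degrades p53, stood at 85.0, 71.5 and 69.7 CPM against 43.0 to 67.5 CPM (median 55.9), and the AKT inhibitor gene Phlda3 at 104, 88.6 and 81.8 CPM against 44.1 to 75.2 CPM (median 63.0), both with no overlap.

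Of 40 G2 and mitosis genes 33 lay above 0, with a median of 0.22 (0.05 without adequate replicate 2), and 5 had an unadjusted p under 0.05, all higher (12.5% against 4.85%). Mki67, a marker of cycling cells, stood at 61.4, 94.7 and 198 CPM in the adequate libraries and at 166 to 240 CPM (median 191) in the supplemented libraries (exact permutation p = 0.0595, adjusted p = 0.218). Its log2 fold change of 0.76 ± 0.27 was 0.44 without adequate replicate 1. E2f2, an activator of replication genes, stood at 7.94, 5.47 and 10.004 CPM against 12.95 to 18.7 CPM (median 16.8), with no overlap (1.05 ± 0.29). It belongs to the list of G1/S and DNA replication genes, where 25 of 36 lay above 0, with a median of 0.12. That median was -0.12 without adequate replicate 2 and -0.03 without supplemented replicate 5. In that list 2 members had an unadjusted p under 0.05, both higher (5.56% against 4.85%). For 1 the groups did not overlap (2.78% against 2.14%). Pigment cell genes lay above 0 in 22 of 30 cases with a median of 0.12 (0.07 without adequate replicate 2, 0.35 without adequate replicate 3). Slc24a5, a melanosome ion exchanger, had 0.48 ± 0.24. Cholesterol genes lay above 0 in 22 of 28 cases with a median of 0.18 (0.08 and 0.31 without the same libraries). Unfolded protein genes divided 13 to 12, and Atf6, the partner sensor of Ern1, had 0.44 ± 0.15.

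Messenger RNAs of several plasma proteins that are made mainly by the liver had low counts in the adequate libraries and 0 in most supplemented libraries. Of 30 such genes, 23 had counts in all 3 adequate libraries, 11 had 0 counts in all 6 supplemented libraries, and 8 had both. How many of all genes had both was not counted. Of the 18 tested members, 7 were lower with no overlap between the groups (38.9% against 2.24% of all genes tested). Some of the 18 passed the count filter only through the adequate libraries, so that share is no test. The list was not uniform: 5 members, Trf, Hp, Cyp2e1, Vtn and Ahsg, had counts in all 6 supplemented libraries (Vtn and Ahsg are named after their values were seen). Trf, the iron carrier transferrin, averaged 264 CPM in the adequate and 221 CPM in the supplemented libraries, and Hp, the hemoglobin-binding haptoglobin, 17.5 and 19.7 CPM. Alb, serum albumin, had 364, 259 and 87 counts in the adequate libraries (22.9, 12.99 and 3.96 CPM). It had 0 counts in 5 supplemented libraries and 5 counts (0.361 CPM) in replicate 3. Fgb had 50, 33 and 15 counts in the adequate libraries and 0 in all supplemented libraries, which makes it at least 70.9-fold lower against a floor of 3 counts over the group. Fgg, the fibrinogen gamma chain, had 29, 19 and 13 counts against 0 in every supplemented library, at least 43.5-fold lower. Serpina3k, a protease inhibitor, had 119, 61 and 14 counts against 2 in supplemented replicate 3 and 0 in the others. Serpina1a, an antitrypsin gene chosen after its values were seen, had 47, 31 and 18 counts against 0 in every supplemented library. Antitrypsin genes are near-identical copies, so the split of reads among them is uncertain.

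The order of the adequate libraries was the same for Alb, Fgb, Fgg, Serpina3k and Serpina1a, with replicate 1 highest and replicate 3 lowest. Of the 30 genes 18 passed the count filter. Genes such as Fgb, Fgg and Serpina1a passed it only through the adequate libraries, where they were high, so the counts are given here without a test.

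**Figure D5:**
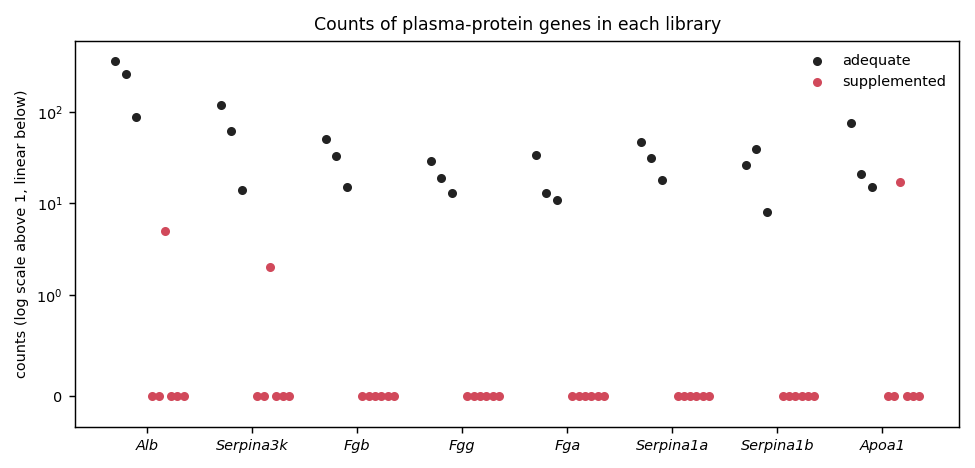
Counts of 8 plasma protein genes in each adequate (black, n = 3) and supplemented (red, n = 6) library, on an axis that is logarithmic above 1 count and linear below. Fga, Serpina1b and Apoa1 were added after their values were seen. Every adequate library holds counts of each gene, and nearly all supplemented libraries sit at 0.

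The restricted and deficient libraries give the levels of the same genes at lower methionine. Their comparisons with the adequate diet share its 3 libraries with the comparison above, so only levels are set side by side. Ddr2 stood at 100.06 to 127 CPM in the restricted and 131 to 138 CPM in the deficient libraries, above the adequate range of 48.1 to 65.1 CPM, as were the supplemented libraries. Cirbp stood at 5.92 to 9.23 and 8.30 to 17.8 CPM, Klf15 at 19.3 to 25.9 and 32.7 to 37.5 CPM, and Rbm3 at 135 to 264 and 168 to 318 CPM, in restricted and deficient libraries in that order. All Klf15 and Rbm3 values lay below the 3 adequate libraries. Stat2 stood at 44.1 to 71.1 and 23.9 to 43.9 CPM. Pccb stood at 20.9 to 23.3 and 21.6 to 25.6 CPM, below the adequate range of 37.5 to 42.2 CPM. Serpina3k and Serpina1a had 0 counts in all 6 libraries of these diets, and Alb had 0 counts in 4 of the 6.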

How the data were processed

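RNA of metastases was depleted of ribosomal RNA and sequenced with a kit that marks strand, per the labels' protocols. The submitters' processing notes name RSEM 1.30, Bowtie2 2.2.9 and edgeR, and the build NCBIM37. Neither strand setting nor annotation release is given in the sources used here, so genes that overlap on opposite strands, and near-identical copies, cannot be told apart. The authors deposited an expected count per gene, an estimate that need not be whole, and the length of each gene, for 37620 gene IDs. Symbols were matched by ID for 32897.

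Expected counts were rounded. Genes were kept by filterByExpr on the 4 diets (16001 genes) and scaled by TMM. The main test was edgeR 4.0.16 (quasi-likelihood, R 4.3.3) on all 15 libraries with a mean per diet, 11 residual degrees of freedom and a biological coefficient of variation of 0.461. Adjusted p-values are Benjamini-Hochberg's, with a threshold of 0.05. DESeq2 1.42.0, limma-voom (limma 3.58.1), other scalings and filters, the 9 libraries alone, a lung covariate and left-out libraries were alternatives. CPM is on the TMM scale, and list levels are means of log2 CPM with a prior count of 2. Within-group pairs differed by a chi-square of 26.4 to 305 per degree of freedom, more than counting noise gives, so none was 1 library deposited again. The steps were tested on simulated data.

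The comparison and its 39 gene lists (1033 of 1045 entries matched) were chosen with earlier results of these data known. Named genes are the 10 with the smallest p in each direction and the genes of largest difference without overlap, both at a mean log2 CPM of at least 1. Also named are the list members with the smallest p or highest level, those called by both other tools, and a few always taken. Some of these are not reported here.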

Additional observations from a re-analysis of the deposited data

Results flagged for a closer look

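In the supplemented group of 6, a library was taken to stand apart when its gap to the nearest other library was over 0.625 of the group's range. Chance marks about 1 in 20 groups this way. Of 119 values 12 did so, and 8 of them lay in supplemented replicate 5.

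Supplemented replicate 5 had Acta1 at 845.5 CPM, against 0.167 to 1.59 CPM in the other 5 libraries, and a skeletal muscle level of 6.12 log2 CPM against -1.74 to -0.50. In the same library the ribosomal protein level was 7.61, above 7.10 to 7.28 in the others. Its levels were low for alveolar type 2 (-0.67 against 4.17 to 5.91), alveolar type 1 (0.41 against 4.17 to 5.85) and mitochondrial genome genes (6.38 against 7.68 to 8.13). They were also low for clock, cold and glucocorticoid genes (3.65 against 4.24 to 4.57) and for small-molecule methyltransferases (1.84 against 2.67 to 3.02).

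Supplemented replicate 3 had Osbpl6 at 53.6 CPM against 32.0 to 39.4 CPM in the others. It was also the one supplemented library with counts of Alb (0.361 CPM) and Serpina3k (0.144 CPM). Gfap was highest in supplemented replicate 4, at 4.43 CPM against 0.667 to 2.03 CPM. No such test was made in the adequate group, which has 3 libraries.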

How the results depend on the processing

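The 0 genes called by edgeR became 2 without adequate replicate 1 and supplemented replicate 5 together (Ddr2, log2 fold change 1.06, and Cirbp, -2.12, both adjusted p = 0.0351), 105 with DESeq2 and 3 with limma-voom. Every other setting, among them leaving out each library in turn (0 to 0), gave 0. Adequate replicate 1 and supplemented replicate 5 stood apart in these same data, so the calls of Ddr2 and Cirbp without them are not independent support. For Cirbp, adequate replicate 1 was the adequate library that lay inside the supplemented range. Genes with an unadjusted p under 0.05 ranged from 1167 without supplemented replicate 4 to 2152 without supplemented replicate 5, and were 2103 with the lung covariate and 1981 with no filter. Leaving out the small structural RNAs and the unnamed pair was an alternative chosen after seeing the data. Of 77 named genes 72 kept their direction in every alternative in which they were tested, which was 17 to 19. Of 39 lists 23 kept the sign of their median in all 17. Directions reversed for 5 genes. With libraries left out in turn the log2 fold change ran from -0.21 to 0.095 for Mat2a (highest without adequate replicate 1), -0.15 (without adequate replicate 2) to 0.33 for Ahcy (-0.052 without supplemented replicate 5), -0.26 to 0.12 for Asns (highest without adequate replicate 1, 0.025 without supplemented replicate 3) and -0.24 to 9.67 for Acta1 (lowest without supplemented replicate 5). Without adequate replicate 1 and supplemented replicate 5 together it was 0.069 for Mat2a, 0.029 for Asns and -0.71 for Acta1. For Sftpc it was -0.83 with limma-voom and -0.67 with the lung covariate. The cause was not tested. No paired analysis was possible because the labels give no replicate numbers, and those used here only name the libraries. Depth limits what can be said of the plasma protein genes: 0 counts in all 6 supplemented libraries allow a mean of up to 0.0258 CPM, which covers counting error only.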
